A study of Mus musculus with 6 samples.

Results

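Kitl encodes stem cell factor, the ligand of the receptor tyrosine kinase KIT. It is described here with 9 other ligands and receptors of growth factor pathways that act on the oligodendrocyte lineage. The ligands were Kitl, Pdgfa, Igf1, Fgf1 and Nrg1, and the receptors were Kit, Igf1r, Fgfr2, Erbb2 and Erbb3. These were 10 of the 55492 genes in the expression table. Kitl was chosen by its lower level in Npc1-/- libraries in the same comparison that is described here, so its values are given as a description with no test. The other 9 genes were listed by their role in these pathways, with earlier results of these data known.

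Cells were isolated from whole brains of 16-day-old mice with magnetic microbeads against O4, a sulfatide-type antigen at the surface of late oligodendrocyte progenitors and immature oligodendrocytes. Polyadenylated RNA was sequenced from 3 WT and 3 Npc1-/- mice, 1 mouse for each library, with no treatment in either group. The mutants carried the Npc1nih null allele on both chromosomes throughout the body and, per the study's methods, were F1 hybrids of the BALB/cJ and C57BL6/J strains. NPC1 moves unesterified cholesterol out of late endosomes and lysosomes. The question was how loss of NPC1 alters expression in O4 cells.

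Growth factors of this group bind receptor tyrosine kinases, which pair on binding, phosphorylate each other and pass the signal through adaptors to the RAS-MAPK and PI3K-AKT cascades. In the oligodendrocyte lineage, PDGFA acting on PDGFRA is known as a mitogen of progenitors, IGF1 acting on IGF1R as a survival and differentiation factor, and FGF receptors as regulators of progenitor growth and myelin thickness. Neuregulins such as NRG1 bind ERBB3 or ERBB4, and ERBB2, which has no known ligand of its own, serves as the signaling partner. Stem cell factor and KIT are best known in mast cells, melanocytes, germ cells and blood progenitors, and both are also expressed in brain.

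Levels are in scaled TPM, which is the deposited TPM (transcript abundance corrected for transcript length) divided by a size factor for each library. The size factors were 1.04 to 1.295 in WT and 0.727 to 1.102 in Npc1-/-. Means are given ± SD over the 3 mice of a genotype (n = 3 throughout). A fold change is the difference in log2(scaled TPM + 0.5), Npc1-/- minus WT, fitted with limma over the 15245 genes whose TPM averaged 0.5 or more. All 10 genes passed that filter. A gene was called at a Benjamini-Hochberg adjusted p below 0.05 and a log2 fold change of 0.1 or more in either direction. The libraries were separate mice, so p-values rest on the spread between mice. For each gene, limma draws this spread toward a trend over all genes tested. The SE and p of a gene therefore do not reflect its own spread alone. In bulk libraries, fewer cells of a type and less RNA per cell cannot be told apart.

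The targeted gene followed the labels, with Npc1 at 45.5 to 53.3 TPM as deposited in WT and 3.16 to 4.42 in Npc1-/-. The estimated depth was 40500000 to 50250000 fragments per library. The O4 label was matched by myelin and progenitor markers, since 8 markers of myelinating oligodendrocytes summed to 174700 to 434900 scaled TPM and 6 progenitor markers to 361 to 679. Markers of other cells summed to less than the myelin markers, but those of some types to more than the progenitor markers. Of these, 6 brain endothelial markers summed to 824 to 1002 in WT and 437 to 701 in Npc1-/-, and 8 neuronal markers to 88.7 to 126 and 126 to 156. Npc1-/- replicate 3 stood apart as the only library with Xist, at 15.6 TPM, and with the Y-linked Ddx3y at 0. It also held the highest sum of the myelin markers.

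Kitl was 2.56-fold lower in Npc1-/- than in WT. It was at 34.93, 27.58 and 28.06 scaled TPM in WT replicates 1, 2 and 3, and at 11.97, 12.01 and 11.38 in Npc1-/- replicates 1, 2 and 3. Each of the 3 Npc1-/- libraries was below each WT library, and they lay close together, at 11.8 ± 0.354 against 30.2 ± 4.12 in WT. The log2 fold change was -1.31 (SE 0.11). Over the alternative settings and the fits without 1 library it ran from -1.67 to -1.20, and without Npc1-/- replicate 3 it was -1.29.

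Kitl lies on the plus strand of chromosome 10 (ENSMUSG00000019966, GRCm38, chr10:100015630-100100416 in the GENCODE M21 annotation). The sequence just upstream is shown for Kitl, Igf1r and Erbb2, the members whose level in Npc1-/- was furthest below WT with no overlap between the groups. The bases come from RefSeq windows on GRCm38.p6 that end 1 base before the RefSeq start, and each is read 5′ to 3′ on the plus strand. They are cut where the first M21 exon begins, which leaves 59 bases at chr10:100015571-100015629 for Kitl, 250 at chr7:67952007-67952256 for Igf1r and 236 at chr11:98412234-98412469 for Erbb2. Capitals mark matches on either strand to the GC box GGGCGG, the CCAAT box CCAAT, the TATA box TATAAA or the E-box CACGTG.
Kitl: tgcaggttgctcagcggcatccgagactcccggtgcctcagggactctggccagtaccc
Igf1r: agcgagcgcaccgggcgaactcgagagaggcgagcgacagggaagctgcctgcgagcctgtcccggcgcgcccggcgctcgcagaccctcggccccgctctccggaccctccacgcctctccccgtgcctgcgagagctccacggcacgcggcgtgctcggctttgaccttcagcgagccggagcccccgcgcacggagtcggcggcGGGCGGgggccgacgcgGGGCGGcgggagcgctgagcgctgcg
Erbb2: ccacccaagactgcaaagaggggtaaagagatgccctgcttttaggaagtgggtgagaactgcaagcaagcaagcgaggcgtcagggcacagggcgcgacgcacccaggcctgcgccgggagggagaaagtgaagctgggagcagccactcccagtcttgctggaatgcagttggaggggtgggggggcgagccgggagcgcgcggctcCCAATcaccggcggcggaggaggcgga
Over the whole 250-base RefSeq window, Kitl held 3 GC boxes, of which 2 overlap each other, and 1 TATA box, all in the stretch not printed. Igf1r held 2 GC boxes, and Erbb2 held 1 CCAAT box. Of all 32851 windows of this length, 32.7% held a GC box, 33.8% a CCAAT box, 12.4% a TATA box and 6.02% the E-box. A window was found for 7 of the 10 genes, and 4 of these held a GC box. G and C made up 69.2% of the Kitl window, 77.6% of that of Igf1r and 66.0% of that of Erbb2, against a median of 52.4% over all windows. These matches are a description of the letters and not of binding.

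**Figure D1:**
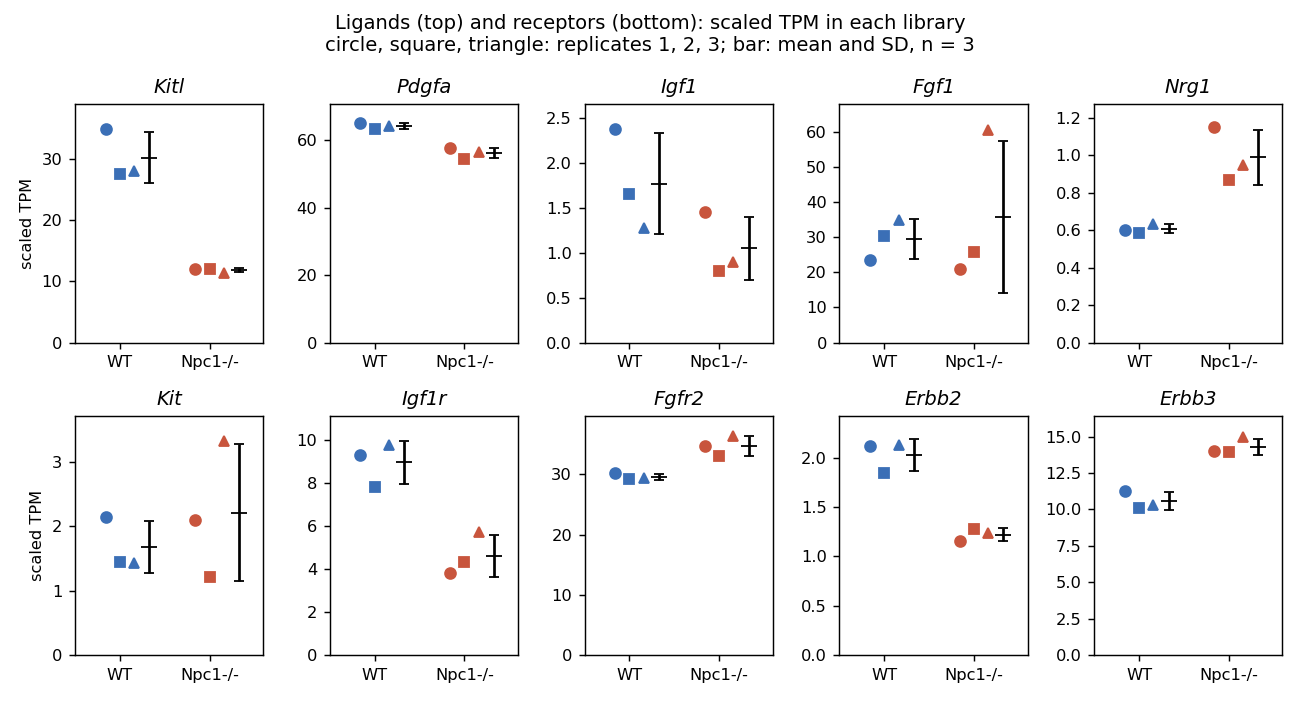
Scaled TPM (vertical axes from 0) of the 5 ligands and 5 receptors in each library, WT in blue and Npc1-/- in red, with the mean and SD of 3 beside the points. Kitl, Pdgfa, Igf1r and Erbb2 were lower in each Npc1-/- library than in any WT library, Fgfr2, Erbb3 and Nrg1 were higher, and Kit, Igf1 and Fgf1 overlapped.

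Kit (chr5:75574916-75656722, plus strand), the receptor of stem cell factor, was expressed at a low level and did not separate the genotypes. It was at 2.14, 1.45 and 1.43 scaled TPM in WT and at 2.10, 1.20 and 3.33 in Npc1-/-. The highest of the 6 values was that of Npc1-/- replicate 3 and the lowest that of Npc1-/- replicate 2. The log2 fold change was 0.26 (SE 0.30, limma adjusted p = 0.676), and it turned to -0.041 on TPM as deposited and to -0.035 without Npc1-/- replicate 3. Mast cells, which depend on KIT, left little RNA, with 6 markers summing to 4.72 to 8.16 scaled TPM in WT and 1.42 to 3.43 in Npc1-/-. The ratio of Kitl to Kit was 18.3 ± 1.74 in WT and 6.37 ± 3.33 in Npc1-/-.

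Pdgfa (chr5:138976014-138997370, minus strand), the ligand of the progenitor receptor PDGFRA, had the highest level of the 10 genes and a small difference. It was at 65.1, 63.4 and 64.4 scaled TPM in WT and at 57.8, 54.6 and 56.6 in Npc1-/-. The groups did not overlap, but the log2 fold change of -0.19 (SE 0.07) had a limma adjusted p of 0.192 and was not called. An antisense gene, 6330403L08Rik, shares 813 exon bases with Pdgfa and was at a mean of 7.58 TPM, and whether the counting used strand is not given in the sources used here. Pdgfra was at 15.0 ± 0.214 scaled TPM in WT and 18.8 ± 6.37 in Npc1-/-, with overlapping groups.

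Pdgfb, another ligand of the family, is known as a signal from endothelium to mural cells, and it fell. It was at 21.1, 15.3 and 16.6 scaled TPM in WT and at 7.66, 9.31 and 9.14 in Npc1-/-. The log2 fold change was -0.97 (SE 0.14, limma adjusted p = 0.0427). The call was lost in 5 of the 6 fits without 1 library, all but that without Npc1-/- replicate 3, where adjusted p values ran up to 0.172. The ratio of Pdgfa to Pdgfb was 3.71 ± 0.550 in WT and 6.53 ± 0.887 in Npc1-/-.

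In the insulin-like growth factor system, neither the receptor nor the ligand was called. Igf1r (chr7:67952827-68233668, plus strand), the main receptor of IGF1, was at 9.29, 7.81 and 9.73 scaled TPM in WT and at 3.80, 4.29 and 5.70 in Npc1-/-. The 3 Npc1-/- values lay below the lowest WT value, with Npc1-/- replicate 3 nearest to it. The log2 fold change of -0.90 (SE 0.16) had a limma adjusted p of 0.0539, just short of the threshold, and the ratio of means was 0.514. Igf1r passed the threshold under 4 alternatives, among them the fit without Npc1-/- replicate 3 at -1.06 (limma adjusted p = 0.0294).

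Igf1 (chr10:87858265-87937042, plus strand), its ligand, is made in brain by microglia, neurons and other cells, and its level here was low. It was at 2.38, 1.65 and 1.27 scaled TPM in WT and at 1.45, 0.795 and 0.895 in Npc1-/-. Npc1-/- replicate 1 exceeded WT replicate 3, so the groups overlapped, and the log2 fold change was -0.55 (SE 0.24, limma adjusted p = 0.244). The insulin receptor gene Insr, whose product can pair with IGF1R, was at 7.54 ± 0.200 in WT and 5.14 ± 0.434 in Npc1-/-, with a limma adjusted p of 0.0583 and no call. The ratio of Igf1r to Insr was 1.18 ± 0.104 in WT and 0.888 ± 0.115 in Npc1-/-. Igf2, a second ligand of IGF1R, was abundant, at 160.5 ± 51.9 and 112 ± 39.0, and its groups overlapped.

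Fgf1 and Fgfr2 had levels of about the same size as Kitl in WT. Fgf1 (minus strand of chromosome 18), a ligand of FGF receptors, was at 23.5, 30.4 and 34.9 scaled TPM in WT and at 20.8, 25.8 and 60.7 in Npc1-/-. The value of Npc1-/- replicate 3 was the highest of the 6, and the other Npc1-/- libraries lay within or below the range of WT. The log2 fold change was 0.13 (SE 0.37, limma adjusted p = 0.881), and it turned to -0.33 without Npc1-/- replicate 3, to -0.02 without WT replicate 1 and to -0.24 on TPM as deposited. Fgf1 and Npc1 both lie on chromosome 18, 26.6 Mb apart.

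Fgfr2 (minus strand of chromosome 7), an FGF receptor of differentiating oligodendrocytes, was at 30.2, 29.3 and 29.3 scaled TPM in WT and at 34.8, 33.1 and 36.4 in Npc1-/-. The spread within each genotype was small and the groups did not overlap, but the log2 fold change of 0.23 (SE 0.08, limma adjusted p = 0.149) was not called and was -0.14 on TPM as deposited. The M21 annotation of Fgfr2 includes a transcript that reads through to Ctbp2, so reads there may be split between both genes. On the scaled values Fgfr1 and Fgfr3 had the opposite sign. Fgfr1 was at 16.5 ± 1.31 in WT and 13.1 ± 0.841 in Npc1-/-, and Fgfr3, which is enriched in astrocytes and early progenitors, at 42.2 ± 5.01 and 23.3 ± 6.53. Neither was called, with limma adjusted p values of 0.119 and 0.0755. The ligand Fgf2 was near 1 scaled TPM in both genotypes, at 1.15 ± 0.0976 and 0.950 ± 0.441.

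The members of the neuregulin pathway had opposite signs. Erbb3 (chr10:128567523-128589652, minus strand), the receptor that binds neuregulin, was at 11.3, 10.1 and 10.3 scaled TPM in WT and at 14.0, 13.9 and 14.9 in Npc1-/-. Erbb2 (chr11:98412470-98437716, plus strand), its signaling partner, was at 2.12, 1.84 and 2.13 in WT and at 1.15, 1.27 and 1.24 in Npc1-/-. For both receptors the groups were apart, Erbb3 with the higher and Erbb2 with the lower values in Npc1-/-. The log2 fold change of Erbb3 was 0.42 (SE 0.09, limma adjusted p = 0.0623), and that of Erbb2 was -0.55 (SE 0.14, limma adjusted p = 0.0782). Neither was called in the fit as planned, and Erbb3 was called when the filter was raised to a mean of 5 TPM (limma adjusted p = 0.0451). On TPM as deposited the log2 fold change of Erbb3 was 0.06.

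Erbb3 exceeded Erbb2 in all 6 libraries. Their ratio, which does not depend on the size factors, was 5.31, 5.48 and 4.85 in WT and 12.2, 10.9 and 12.1 in Npc1-/-. The groups of ratios did not overlap, at 5.21 ± 0.329 and 11.7 ± 0.681. An exact two-sided permutation test gave p = 0.1, the smallest that 3 against 3 can give. The same p was found for each of the 6 ratios that were tested, also after Benjamini-Hochberg adjustment over the 6. The others were Igf1r to Insr, Igf1r to Igf2r, Pdgfa to Pdgfb, Fgfr2 to Fgfr1 and Fgfr2 to Fgfr3. The pairs were chosen with the values of these genes known.

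Nrg1 (chr8:31814551-32884029, minus strand), the ligand of ERBB3 and ERBB4, was the lowest of the 10 genes. It was at 0.602, 0.587 and 0.636 scaled TPM in WT and at 1.15, 0.866 and 0.950 in Npc1-/-. The 3 Npc1-/- values lay above the 3 of WT, and the log2 fold change was 0.42 (SE 0.17, limma adjusted p = 0.196). At this level the pseudocount of 0.5 shrinks the difference, and the ratio of means was 1.63. Gm26578, a noncoding gene on the opposite strand, shares 482 exon bases with Nrg1 and has no level here. As for Pdgfa, whether the counting used strand is not given. Counting the longest transcript, about 91 to 200 fragments a library lay behind Nrg1, against 1611 to 7633 behind Kitl. Erbb2 had about 155 to 409, Igf1 157 to 654 and Kit 175 to 436. The other neuregulins were as low, with Nrg2 at 0.739 ± 0.174 in WT and 0.688 ± 0.328 in Npc1-/-, and Nrg3 at no more than 0.36 TPM in any library. Erbb4, the alternative neuregulin receptor, was at 4.72 ± 0.143 and 4.59 ± 0.565, with overlapping groups. Egfr, the founding member of the family, was at 1.88 ± 0.503 and 1.06 ± 0.203, with a limma adjusted p of 0.142.

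**Figure D2:**
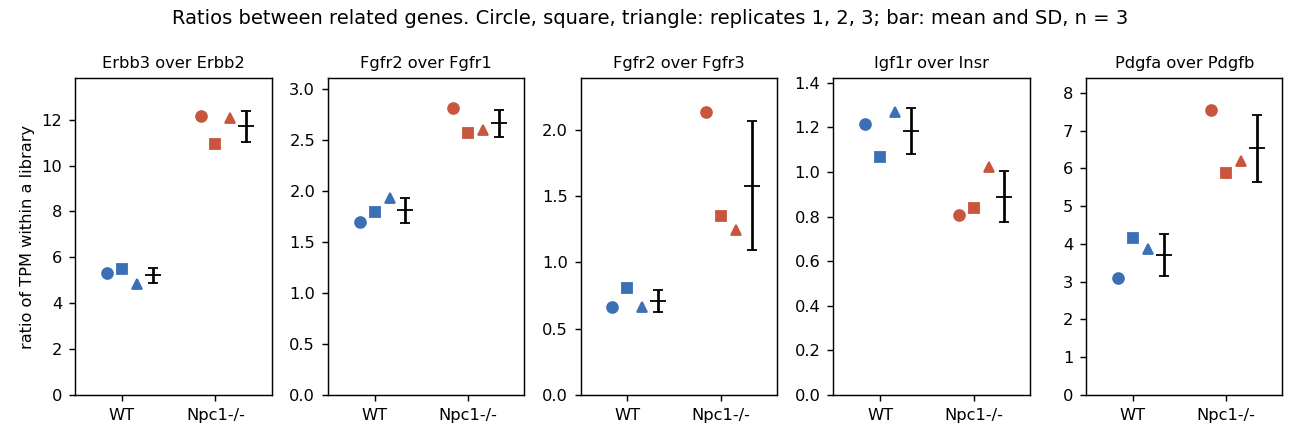
Ratios of TPM within each library (vertical axes from 0) for 5 pairs of related genes, WT in blue and Npc1-/- in red, with the mean and SD of 3 beside the points. Erbb3 over Erbb2 was 4.85 to 5.48 in WT and 10.9 to 12.2 in Npc1-/-, and none of the 5 ratios overlapped between genotypes.

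Across the 10 genes, Kitl was among the 0.413% of tested genes called lower, the criterion on which it had been selected, and none of the other 9 was called in either direction, where 0.4% of tested genes were called higher. At an unadjusted limma p below 0.05, 3 of the 9 were lower (Pdgfa, Igf1r and Erbb2) and 3 higher (Fgfr2, Erbb3 and Nrg1), beside 11.6% of all tested genes that were lower and 10.6% that were higher. At an adjusted p below 0.1 there were 2 lower, Igf1r and Erbb2, and 1 higher, Erbb3, beside 5.13% and 3.82%. Of the 10 genes, 4 had all Npc1-/- values below WT and 3 had all above, beside 14.2% and 13.3% of tested genes. The 9 genes were listed with results of this comparison known, so nothing is read from these shares. The median log2 fold change of the 10 was -0.03, against 0.01 over all genes tested.

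The scaling moved every member in the same direction. On TPM as deposited, the median over all genes tested was -0.33, and the size factors brought it to 0.01. Relative to that shift, the deposited values gave log2 differences of -1.35 for Kitl, -0.92 for Igf1r, -0.51 for Erbb2, 0.39 for Erbb3 and 0.19 for Fgfr2. Longer transcripts were on the whole lower in Npc1-/-, with a Spearman correlation of -0.265 between log2 fold change and longest transcript across 15230 genes, which are not independent replicates. With a curve on transcript length removed, Kitl was at -1.23, Igf1r, with 11409 bases the longest of the 10, at -0.75, Erbb2 at -0.49 and Erbb3 at 0.51. The part of length in these differences was not tested.

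**Figure D3:**
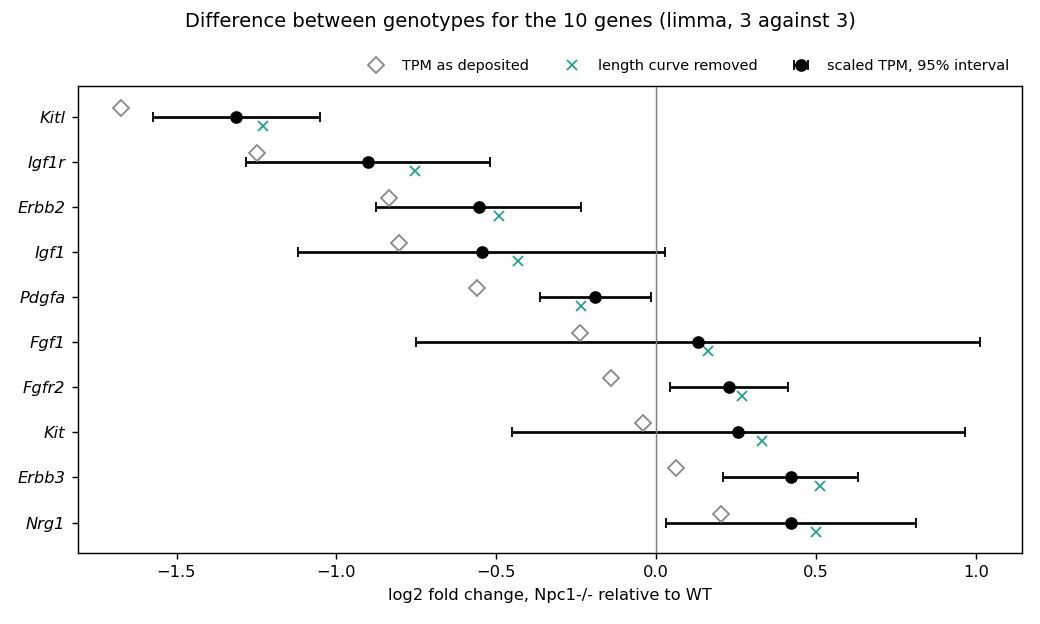
Log2 fold change of the 10 genes, Npc1-/- relative to WT (horizontal axis), with limma's 95% interval as bars, the same on TPM as deposited as diamonds and with the length curve removed as crosses. Kitl was at -1.31, -1.67 and -1.23 by these 3 measures, and the diamonds lie to the left of the filled points for all 10 genes.

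The pathway genes around the members were taken from 8 lists by function. The name Nrdp1 on the ERBB list was not found in the expression table. With it, the lists held 147 other gene names, 130 of which passed the filter. Of these 130, Pdgfb was called lower and Adam19 higher, 1 gene in each direction beside 0.413% and 0.4% of all tested genes, and their median log2 fold change was -0.09. Adam19 encodes a membrane metalloprotease known to cleave neuregulins, and it rose. It was at 8.16, 8.69 and 7.84 scaled TPM in WT and at 14.8, 13.8 and 13.6 in Npc1-/-, a log2 fold change of 0.74 (SE 0.09, limma adjusted p = 0.0364). Like Pdgfb, it lost the call in 5 of the 6 fits without 1 library, and it also lost it on TPM as deposited (log2 fold change 0.38).

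The list of stem cell factor and PDGF family ligands and receptors, had 11 genes tested apart from Kitl, with a median log2 fold change of -0.43. Of these 11, Pdgfb was called lower, beside 0.413% of all tested genes, and none higher. Its largest positive value was that of Csf1, a cytokine of microglia, at 0.35 (limma adjusted p = 0.0911). After Kitl, its largest fall was that of the receptor gene Csf1r, at -1.30 (limma adjusted p = 0.0580, not called). Csf1r was at 51.0 ± 12.6 scaled TPM in WT and 20.8 ± 7.18 in Npc1-/-, without overlap. The insulin-like growth factor list had 14 genes tested and a median of -0.50, with no gene called. Its values ran from -0.90 for Igf1r to 0.23 for the receptor substrate gene Irs2 (limma adjusted p = 0.211). The fibroblast growth factor list had 14 genes tested, none called, and a median of 0.17, with values from -0.87 for Fgfr3 to 0.98 for Fgf22 (limma adjusted p = 0.211). The groups of Fgf22 overlapped, and its highest value, 9.22 scaled TPM, was that of Npc1-/- replicate 3. The ERBB list had 12 genes tested, none called, and a median of -0.08, from -0.60 for Egfr to 0.42 for Nrg1.

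The next lists hold genes downstream of the receptors and genes that process the ligands. The 31 adaptor and PI3K-AKT genes had a median log2 fold change of -0.04, from -0.70 for Grb10, an adaptor of insulin and IGF receptors (limma adjusted p = 0.0546), to 0.82 for Gab2, a docking protein (limma adjusted p = 0.217). Gab2 also overlapped between groups, with Npc1-/- replicate 3 highest at 23.9 scaled TPM. The 17 RAS-MAPK genes had a median of -0.02, from -0.53 for the scaffold gene Ksr1 to 0.29 for Hras. The 20 genes of ERK feedback and response, among them the negative regulators Dusp6 at -0.66 (limma adjusted p = 0.0616) and Spred3 at 0.72 (limma adjusted p = 0.0602), had a median of -0.02. None of these 68 genes was called. The 20 genes of ligand processing and heparan sulfate partners had a median of -0.18, from -0.74 for the pseudoprotease gene Rhbdf2 (limma adjusted p = 0.0794) to Adam19.

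**Figure D4:**
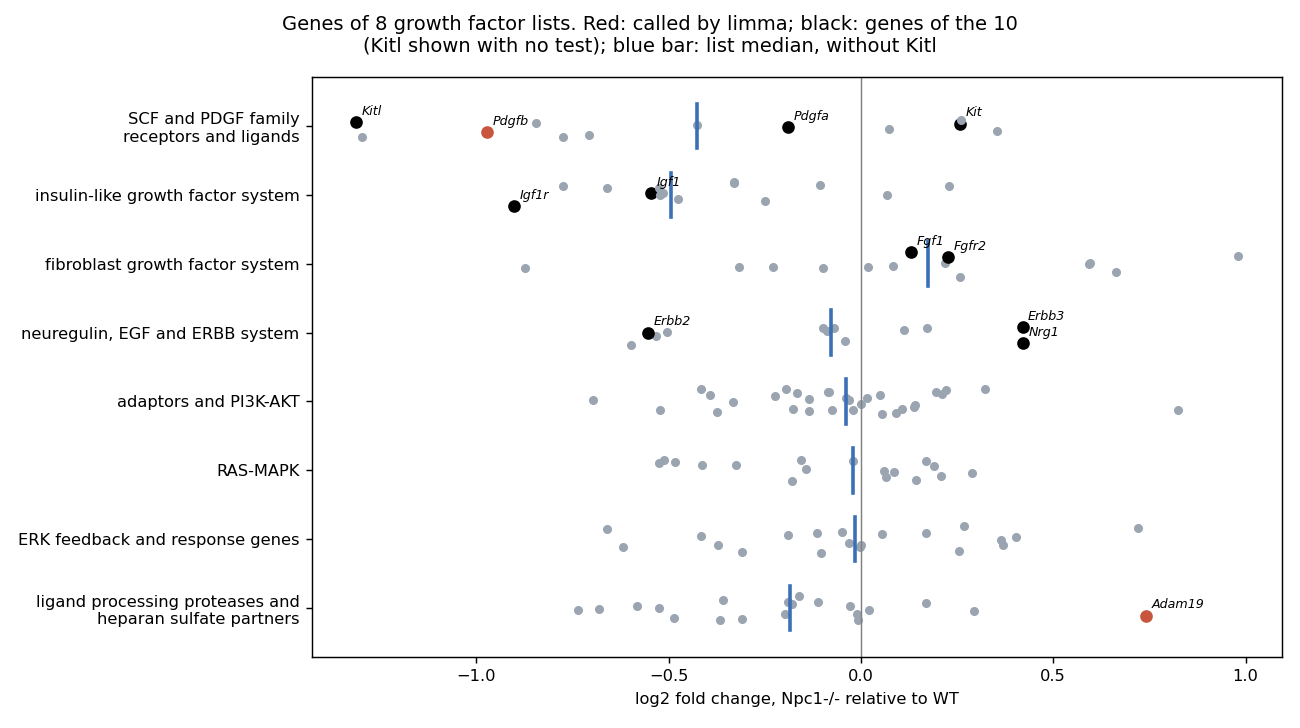
Log2 fold change, Npc1-/- relative to WT (horizontal axis), of the tested genes of 8 lists of growth factor genes, 1 point a gene, with called genes in red, the members of the 10 in black and the list median, taken without Kitl, as a blue bar. Kitl is shown with no test, the medians run from -0.50 in the insulin-like growth factor list to 0.17 in the FGF list, and Pdgfb and Adam19 are the called genes.

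Markers of other cells moved with several members. All 6 endothelial and all 6 mural cell markers had negative log2 fold changes, with medians of -0.81 and -0.82, as did 7 of 8 microglial markers, with a median of -0.81. None of the endothelial or mural markers was called, and 1 microglial marker, Tmem119, was called lower. The summed level in Npc1-/- relative to WT was 0.649 for endothelial, 0.538 for mural, 0.569 for microglial and 0.633 for fibroblast markers. It was 0.347 for mast cell markers, whose levels were low. Kitl was at 0.391 of WT, Igf1r at 0.514, Erbb2 at 0.602 and Pdgfb at 0.493. For astrocytes 5 of 6 markers were negative with a median of -0.58, but Gfap was at 1.01 and the sum at 0.956 of WT. Within the lineage, the median log2 fold change was -0.12 for progenitor, -0.14 for immature and 0.34 for myelinating oligodendrocyte markers, with none called. Their sums in Npc1-/- were 0.921, 1.58 and 1.51 of WT. The sum of the immature list went opposite to its median, and most of it was Bcas1, with a log2 fold change of 0.74 and overlapping groups. Most of the myelinating sum was Mbp, with a log2 fold change of 0.57 (SE 0.89) and overlapping groups. That sum was at 0.999 of the WT mean in Npc1-/- replicate 1. The neuronal list was at 0.19, the fibroblast list at -0.51 and the mast cell list at -1.07, also with none called. Purkinje cell markers were higher, with 5 of 6 positive, 3 called (Pvalb, Pcp2 and Car8) and a sum 2.79-fold that of WT. Itpr1 was the exception, at -0.72. Most of the sum was Pcp2, at 180 ± 15.3 scaled TPM in WT and 549 ± 56.7 in Npc1-/-.

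Kitl was selected for its fall in these libraries, so its values per 100 TPM of markers are a description with no test. Against endothelial markers it was at 3.49, 3.15 and 3.41 per 100 TPM in WT and 2.74, 1.95 and 1.62 in Npc1-/-, without overlap. Per 100 TPM of mural markers it was at 4.05 to 4.46 in WT and 2.48 to 3.58 in Npc1-/-, also without overlap. Per 100 TPM of microglial markers the groups overlapped, at 16.0 to 20.2 and 8.72 to 17.3. Igf1r was at 0.892 to 1.18 per 100 TPM of endothelial markers in WT and 0.698 to 0.870 in Npc1-/-, and its groups overlapped on the mural and microglial scales. Erbb2 overlapped between genotypes on all 3 of these scales, at 0.211 to 0.258 and 0.177 to 0.264 per 100 TPM of endothelial markers.

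The endothelial sum is mostly Cldn5 and Ly6c1, the 2 markers of that list with the log2 fold changes nearest to 0, at -0.54 and -0.63. On the other 4 markers, a choice made after seeing the data, Kitl was at 11.9 to 12.7 per 100 TPM in WT and 7.73 to 10.8 in Npc1-/-, without overlap. Igf1r, at 3.31 to 4.41 and 3.25 to 3.87, overlapped there, as did Erbb2, at 0.757 to 0.964 and 0.842 to 1.04. Per 100 TPM of astrocyte markers, none of the 3 genes overlapped between genotypes. Kitl was at 7.36 to 7.89 in WT and 2.38 to 4.33 in Npc1-/-, Igf1r at 2.08 to 2.69 and 1.15 to 1.37, and Erbb2 at 0.479 to 0.587 and 0.259 to 0.417. This scale rests on Gfap, which rose from a mean of 88.9 scaled TPM in WT to 189.9 in Npc1-/-. The other 5 astrocyte markers were each lower in Npc1-/-, without overlap. Whether the 3 genes stay apart on a sum without Gfap was not tested. Each of the 3 was also lower, without overlap, per 100 TPM of Purkinje cell markers, whose sum was itself higher in Npc1-/-. The part of these cell types, and of the sex-linked expression and myelin content of Npc1-/- replicate 3, in the differences of the members was not tested.

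**Figure D5:**
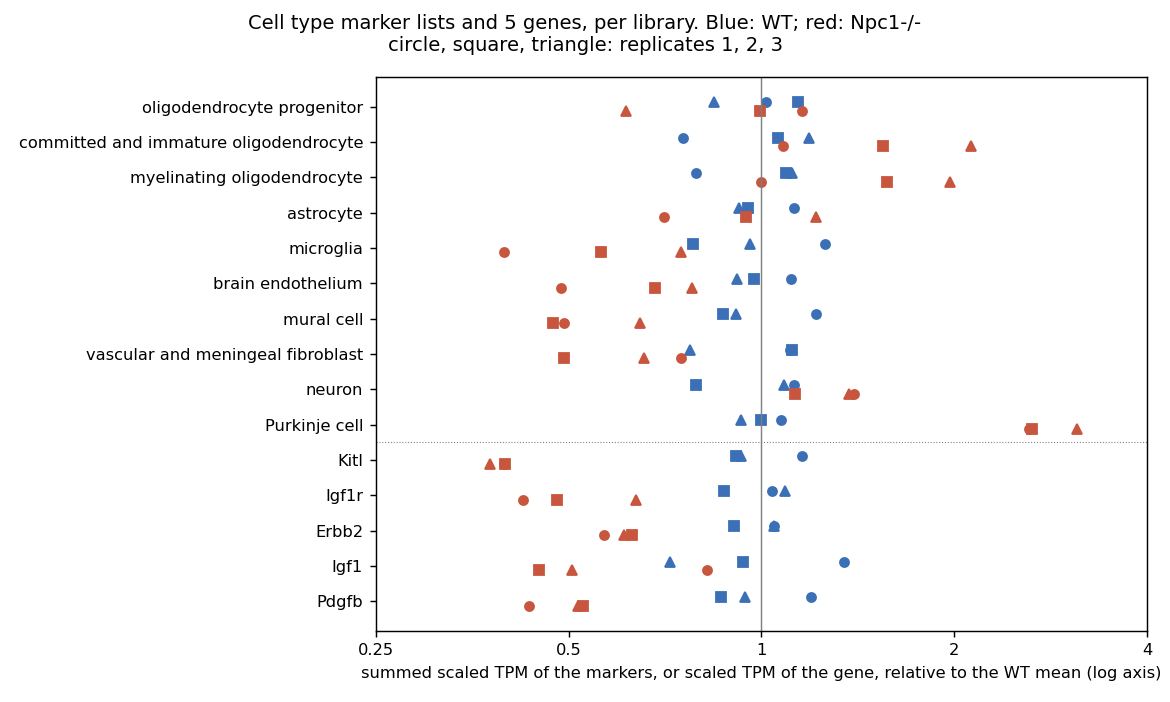
Summed scaled TPM of 10 marker lists and scaled TPM of 5 genes in each library, relative to the WT mean (horizontal log axis), WT in blue and Npc1-/- in red with a marker shape for each replicate. Endothelial, mural and microglial sums were 0.538 to 0.649 of WT on average in Npc1-/-, Kitl was 0.391 of WT, and the Purkinje sum was 2.79 times that of WT.

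The genes whose pattern over the 6 libraries was most like that of Kitl, by Pearson correlation of log2 levels among 9149 genes with a mean of 5 TPM or more, were Mapk14 (r = 0.996), Rarres2 (0.995), Filip1 (0.992), Vsir (0.990) and Stab1 (0.989). Mapk14 encodes the kinase p38 alpha, and Stab1 is known in sinusoidal endothelium and macrophages. The log2 fold changes of these 5 genes were between -1.26 for Stab1 and -0.44 for Mapk14, all smaller in size than that of Kitl. With 6 points that share 2 genotypes, such correlations are a description only.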

How the data were processed

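Bulk RNA-seq of 6 libraries, 3 WT and 3 Npc1-/- by the genotype label, was used. The authors deposited TPM values for each gene and library, rounded to 2 decimals. The authors also deposited FPKM values (fragments scaled by transcript length and library size), which were used as an alternative and to estimate depth. The submitters' processing notes name cutadapt 2.3, FastQC 0.11.8, STAR 2.7.8a, RSEM 1.3.3, MultiQC 1.7 and GRCm38 (mm10), while the paper's methods name bbduk, STAR, featureCounts and DESeq2, and which made these tables is not given in the sources used here. Of 55492 gene IDs, 55227 were found in GENCODE M21, which gave positions and transcript lengths.

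The count test of the study needs counts, so limma 3.58.1 in R 4.3.3 was fitted in its place, with trend and two-sided, on log2(TPM divided by a median-of-ratios size factor, plus 0.5), over genes with a mean TPM of 0.5 or more, with genotype as the only factor. Tables and plots were made in Python 3.11.15. The fit was tested on simulated data. With 200 of 15245 genes changed by a log2 of 1.5, it called 171 of them in the right direction and 10 unchanged genes. Smaller changes, such as those of the members, were not simulated, so the test does not show how often these would be called. Depth was estimated from the spacing of low FPKM values of transcripts of 350 to 1500 bases, of which 82.8% to 86.6% came within 0.15 of a whole number of fragments, so it is approximate. It bounds precision only for low genes such as Nrg1, Erbb2, Igf1 and Kit, and no intervals from counts were made.

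The members, pathway lists and marker lists were chosen with earlier results of these data known. The genes named were the 10 members, every pathway list gene called, the largest rise and fall in each list, related receptors and ligands of the members, and the 5 genes most correlated with Kitl. Csf1r, Tmem119, Gfap, Bcas1, Cldn5, Ly6c1, Pvalb, Pcp2, Car8, Xist and Ddx3y were named after their values were seen. The markers of oligodendrocyte, astrocyte, microglial, vascular, mast cell and neuronal types are summarized by list. Promoter windows are from RefSeq on GRCm38.p6. Alternatives were other scalings, pseudocounts of 0.1 and 1, other filters, limma without trend or robust, a replicate block, a curve on transcript length, other thresholds and leaving out each library.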

Additional observations from a re-analysis of the deposited data

How the results depend on the processing

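Of 166 log2 fold changes of the members recomputed under the alternatives, 160 kept their direction, 6 reversed and 6 newly passed the threshold (Igf1r in 4, Erbb3 in 2). On TPM as deposited, Kit was at -0.041, Fgf1 at -0.24 and Fgfr2 at -0.14, and 5.84% of called genes were higher in place of 49.2%. Leaving out 1 library gave Kit values of -0.035 to 0.56 and Fgf1 values of -0.33 to 0.44, the lowest of both without Npc1-/- replicate 3. The cause was not tested.

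The counts of called genes depended on the setting. Of all genes 124 were called, of the other pathway genes 2 and of the members 1 (Kitl). These were 924, 18 and 2 on TPM as deposited, and 447, 11 and 3 at a mean TPM of 5 or more, where Kit, Igf1, Erbb2 and Nrg1 have no value. Quantile normalization gave 225 of all genes and 4 pathway genes, no filter 21 and 0, limma without trend 42 and 0, and the length curve 4 pathway genes. An unadjusted p below 0.05 gave 3386 of all genes and 7 members, and an adjusted p below 0.1 gave 1365 and 4. Without 1 library the counts were 4 to 486 of all genes, 0 to 13 pathway genes and 0 to 2 members. The lowest count of all genes was without Npc1-/- replicate 2 and the highest without Npc1-/- replicate 3, and Kitl lost its call without WT replicate 3 or Npc1-/- replicate 2. Nrg1 rests on the fewest fragments of the members, about 91 to 200 a library.

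The replicate numbers were not taken to pair the mice, since deviations from the group means of same-numbered libraries correlated at 0.414, 0.0602 and 0.326. Every library correlated best with its own number, a hint from the data and not from the design. With a replicate block, 2011 of all genes, 28 pathway genes and 3 members (Kitl, Igf1r and Erbb3) were called.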

Other observations

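The 10 genes differed in how closely the mice of a genotype lay together. Pdgfa varied least, with a coefficient of variation of scaled TPM of 1.31% in WT and 2.79% in Npc1-/-, followed in WT by Fgfr2 at 1.68%. Kitl was at 13.6% in WT and 3.00% in Npc1-/-. Fgf1 and Kit varied most in Npc1-/-, at 60.7% and 48.3%, and Igf1 most in WT, at 31.8%.

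Of the growth factor genes on the lists, 16 were below the expression filter. Among them, Fgf20 and the EGFR ligand gene Areg were listed at 0 TPM in all 6 libraries, and Ereg, another EGFR ligand gene, at no more than 0.01 TPM. Fgfr4 reached 0.69 TPM in 1 Npc1-/- library and was at 0.27 TPM or less in WT.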
